A study of Homo sapiens with 8 samples.

Results

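The G2/M and mitosis genes are 57 genes taken by name from the count table: mitotic kinases and cyclins, spindle checkpoint proteins, kinesins, kinetochore and condensin subunits, cytokinesis proteins and the factors FOXM1 and MYBL2. The rule takes genes by name and uses no measured value, though the list was drawn up with earlier results of these data known. All 57 were among the 61228 genes of the table, and 56 were among the 15568 genes that passed a filter on low counts. Messenger RNA was sequenced from MDA-MB-231 cells, an established human breast cancer line of metastatic origin that is triple-negative. There were 4 groups of 2 libraries. Knockout monolayers were nucleofected with Cas9 and guides against ETV1, ETV4 and ETV5 and grown on plastic, and control monolayers were nucleofected with control guides and grown the same way. Knockout gels had the same nucleofection as the knockout monolayers and grew in collagen I, while control gels were nucleofected with Cas9 and control guides and grew in collagen I. More than 1 collagen density is named in the labels with no key to the samples, so gel density may differ between gel libraries or groups and cannot be told apart from the effects in gels. The label of the control monolayers does not name Cas9. If none was given there, the knockout effect measured in monolayers, the gel effect in control cells and the difference between the cultures cannot be told apart from an effect of Cas9 itself. Gels were digested with collagenase I before lysis, so culture and harvest also cannot be told apart. The labels do not say whether the knockout cells were a pool or a clone, nor that replicate libraries were grown separately. The p-values thus rest on the spread between libraries that may be technical replicates.

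In dividing cells, CDK1 joined to a cyclin drives entry into mitosis, the kinetochores attach chromosomes to the spindle, and the spindle checkpoint holds back the anaphase-promoting complex (APC/C) until all chromosomes are attached. CDC20 then switches the APC/C on, cyclin B and securin are destroyed, the chromosomes separate, and a contractile ring divides the cell. Many genes of this programme are transcribed in G2 through a promoter element called the cell cycle genes homology region (CHR). The DREAM complex binds it in resting cells, and MuvB with B-MYB (MYBL2) and FOXM1 binds it in cycling cells. In a bulk sample, fewer cells in G2 or mitosis and less of these RNAs per cell cannot be told apart.

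Library totals were 15824504 to 23896899 counts, and the members held 0.914 to 1.11% of them. VIM stood at 5395 to 7208 CPM, here counts scaled to the library total, and ESR1 and PGR had at most 2 counts in a library. The line is known to be mesenchymal-like and to lack both receptors. CDH1 had 1 to 7 counts and EPCAM 13.2 to 22.5 CPM of the library total. ERBB2, listed beforehand as low or absent in this line, was detected, with 1044 to 1660 counts, or 55.1 to 70.7 CPM of the library total. Apart from VIM, EPCAM and ERBB2, the CPM values given here were scaled by TMM to a common library size. Of the leukocyte markers given here, CD3E had at most 2 counts, PTPRC 4 to 21 and CD14 13 to 40 in a library. Of the endothelial markers CDH5 had at most 1 count and VWF at most 7, while PECAM1 had 62 to 186. Of the fibroblast markers DCN had at most 1, PDGFRA at most 2, COL1A2 at most 4 and LUM 1 to 6, while COL1A1 had 170 to 335. Of the luminal markers, FOXA1 had 34 to 70 counts, GATA3 129 to 236 and KRT8 6882 to 10421. Of the targeted genes, ETV1 RNA had a knockout effect of -0.50 ± 0.051 on the log2 scale in monolayers and -0.66 ± 0.051 in gels, ETV4 RNA of -0.45 ± 0.061 and -0.57 ± 0.060, and ETV5 RNA of 0.035 ± 0.054 and 0.023 ± 0.054. RNA that carries a small edit can persist, so these values check the labels only in part. The numbers after ± beside log2 fold changes are standard errors from edgeR's quasi-likelihood fit over all 8 libraries, and adjusted p-values are from its F-test with Benjamini-Hochberg adjustment over all 15568 genes. Genes with an adjusted p under 0.05 are called higher or lower.

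The members ranged widely in abundance. Per kilobase of exon and averaged over the groups, the most abundant were CDC20, the APC/C activator, at 168 CPM per kb, and UBE2C, the ubiquitin-conjugating enzyme that works with the APC/C, at 142. TPX2, which activates Aurora A on the spindle, followed at 135, and cyclin B1 (CCNB1) at 130.3. At the low end were CDC25C, a phosphatase that activates CDK1, at 9.08, HMMR, a spindle protein, at 6.78, and KNL1, a scaffold of the outer kinetochore, at 6.51. Apart from PRC1, each tested member had at least 292 counts in every library. PRC1, which bundles microtubules of the central spindle, had 62 to 125 counts and 1.16 CPM per kb. NUSAP1, a microtubule-bundling protein, had 0 to 2 counts in a library and was not tested. In the GENCODE v29 annotation, 72.8% of the exon bases of NUSAP1 and 65.2% of those of PRC1 lie in another gene on the same strand. The annotation behind the counts was not named, and the counts of both genes are uncertain. The strand setting is not given either, so reads of NCAPG, of whose exon bases 35% overlap the antisense gene LCORL, and of SMC4, of which 23.9% overlap TRIM59, cannot be told apart from their antisense partners.

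The promoters show what many of these genes have in common in their sequence. RefSeq promoters (GRCh38.p14, 250 bases before to 50 bases after the start) were at hand for 48 of the 57 members. Both strands were searched for the CHR in any of 4 forms, namely TTTGAA, the variant TTCGAA, the variant TTTAAA and the variant CTTGAA, and for the CCAAT box, to which NF-Y binds. Windows with more than 1 match were counted once, and matches of the different motifs may overlap, as they do in MKI67 and CDCA8. A CHR match was found for 44 of the 48 members (91.7%), against 36.7% of all 27305 genes with a promoter and 29.1% of the 11102 of those that were tested. The form TTTGAA alone was found for 35 members (72.9%), against 18.2% of all genes. A CCAAT box was found for 36 members (75%), against 39.7% of all genes, and both elements for 34 members (70.8%), against 16.6%. In 62 other mitotic genes both elements occurred in 53.2%, and in 40 genes of S phase and DNA replication in 15%. Some genes have several windows in the table. Among genes with 1 window, a CHR match was found for 92.3% of 39 members and 33.3% of all 22114. No CHR form was found in these windows for AURKB, SPC24, MYBL2 and CKAP2.

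The positions of the matches were compared next. Matches were pooled over all 62 windows of the 48 members, so a site in overlapping windows of a gene, as in PTTG1, counts more than once. The 80 CHR matches in member promoters had a median position of -29.5 from the start, and 61.2% lay within 50 bases of it, against 26.8% of the CHR matches of all genes. The 84 CCAAT matches had a median position of -86.5, near the -96 of the CCAAT matches of all genes, and 50% lay between -100 and -51. The 6 promoters that follow belong to some of the members named in the comparison of knockout gels with control gels. Each is printed 5′ to 3′ on the strand of the gene, with CHR and CCAAT matches of either strand in capitals. They lie at chr10:128126374-128126673 (minus strand) for MKI67, chr4:121823834-121824133 (minus) for CCNA2, chr5:69166900-69167199 (plus) for CCNB1, chr16:23678639-23678938 (plus) for PLK1, chr1:43358731-43359030 (plus) for CDC20 and chr1:197146620-197146919 (minus) for ASPM. Each window covers the proximal promoter and the first bases of the first exon. ASPM was added after its values were seen.
MKI67: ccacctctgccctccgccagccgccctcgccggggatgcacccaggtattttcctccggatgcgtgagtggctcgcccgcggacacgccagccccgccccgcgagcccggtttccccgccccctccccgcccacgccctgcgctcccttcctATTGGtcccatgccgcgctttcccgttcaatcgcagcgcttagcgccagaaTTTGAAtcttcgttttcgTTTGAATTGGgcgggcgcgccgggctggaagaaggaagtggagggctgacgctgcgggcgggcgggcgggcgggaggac
CCNA2: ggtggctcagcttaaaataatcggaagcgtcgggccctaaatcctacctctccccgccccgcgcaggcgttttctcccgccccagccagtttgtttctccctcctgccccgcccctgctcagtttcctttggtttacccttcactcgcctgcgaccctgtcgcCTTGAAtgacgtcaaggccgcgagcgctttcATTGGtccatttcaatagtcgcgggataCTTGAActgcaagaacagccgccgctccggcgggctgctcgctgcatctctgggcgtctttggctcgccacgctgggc
CCNB1: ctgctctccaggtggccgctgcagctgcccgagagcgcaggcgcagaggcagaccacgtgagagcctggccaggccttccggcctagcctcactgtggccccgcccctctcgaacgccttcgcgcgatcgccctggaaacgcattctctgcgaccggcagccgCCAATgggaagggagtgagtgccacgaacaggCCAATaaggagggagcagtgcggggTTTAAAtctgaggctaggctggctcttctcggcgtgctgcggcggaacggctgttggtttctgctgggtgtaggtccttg
PLK1: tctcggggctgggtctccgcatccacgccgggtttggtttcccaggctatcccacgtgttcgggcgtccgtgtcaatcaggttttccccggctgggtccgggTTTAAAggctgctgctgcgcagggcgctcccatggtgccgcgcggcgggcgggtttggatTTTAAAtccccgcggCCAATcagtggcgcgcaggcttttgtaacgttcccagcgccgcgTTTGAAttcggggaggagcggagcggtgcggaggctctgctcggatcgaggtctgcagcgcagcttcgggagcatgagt
CDC20: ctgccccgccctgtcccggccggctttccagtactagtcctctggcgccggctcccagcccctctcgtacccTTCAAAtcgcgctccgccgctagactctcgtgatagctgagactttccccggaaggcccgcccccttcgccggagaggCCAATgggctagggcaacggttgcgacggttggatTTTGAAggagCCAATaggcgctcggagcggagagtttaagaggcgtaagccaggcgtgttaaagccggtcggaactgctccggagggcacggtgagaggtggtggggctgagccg
ASPM: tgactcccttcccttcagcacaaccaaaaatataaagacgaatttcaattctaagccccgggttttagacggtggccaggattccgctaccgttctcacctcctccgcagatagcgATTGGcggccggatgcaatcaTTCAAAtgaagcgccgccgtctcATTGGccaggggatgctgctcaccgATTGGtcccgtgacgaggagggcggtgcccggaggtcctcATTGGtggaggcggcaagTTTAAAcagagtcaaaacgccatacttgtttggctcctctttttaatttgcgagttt
In CCNB1 a CHR began at -30, with CCAAT boxes at -87 and -55. PLK1 had CHR matches at -148, -88 and -29 and a CCAAT box at -73, and CCNA2 had CHR matches at -87 and -28 and a CCAAT box at -56. MKI67 had CHR matches at -47 and -29, the second of which overlaps a CCAAT match on the opposite strand. CDC20 and ASPM had no CHR match close to -30: those of CDC20 began at -178 and -65, and those of ASPM at -113 and -7.

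**Figure D1:**
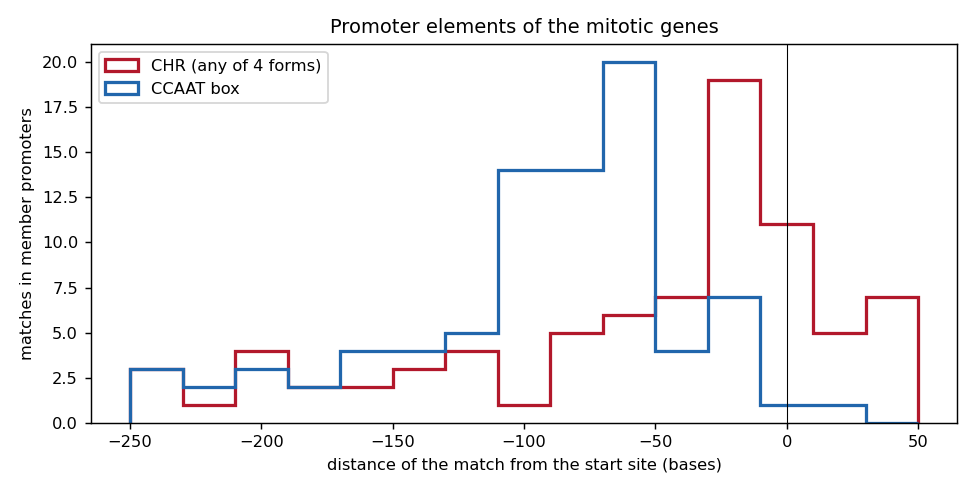
Number of matches (y axis) to the CHR in any of 4 forms (red) and to the CCAAT box (blue) by distance from the start site in bases (x axis), in the promoters of 48 members. Sites in overlapping windows of a gene count more than once. CHR matches gather near the start, with a median position of -29.5, and CCAAT matches lie farther upstream, with a median of -86.5.

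In gels, most mitotic genes were higher in knockout cells than in control cells. Of the 56 tested members 32 were called higher and none lower, while 23.9% of all genes tested were called, 11.5% higher and 12.4% lower. The median member change was 0.15 on the log2 scale, or 10.8%, against -0.001 for all genes, and 53 members had a value above 0. Both knockout gels lay above both control gels for 46 members and below both for 1, patterns found for 30.9% and 30.7% of all genes. No called change reached 1.5-fold.

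MKI67, the gene of the Ki-67 protein that coats mitotic chromosomes and serves as a marker of cycling cells, had 595 and 609.9 CPM in knockout gels, against 457 and 486 CPM in control gels. The knockout gels lay above the control gels with no overlap, and the log2 fold change was 0.35 ± 0.048 (adjusted p = 7.48e-07). Of the kinases and cyclins, 8 of 11 were higher. Cyclin B1 (CCNB1), the mitotic partner of CDK1, had 319 and 342 CPM in knockout gels, against 282 and 284 CPM in control gels, a change of 0.23 ± 0.046 (adjusted p = 0.000383). For PLK1, a kinase of mitotic entry and centrosome maturation, the values were 188 and 184 CPM in knockout gels and 162 and 159.7 CPM in control gels, a change of 0.21 ± 0.049 (adjusted p = 0.00140). In both genes the groups were separate. Cyclin A2 (CCNA2) rose by 0.24 ± 0.055, CDK1 itself by 0.18 ± 0.050, and AURKA, the Aurora kinase of the spindle poles, by 0.17 ± 0.046 (adjusted p = 0.00122, 0.00712 and 0.00629). AURKB, the Aurora kinase of the passenger complex, and the checkpoint kinases BUB1 and BUB1B were also called higher. Cyclin B2 (CCNB2), PLK4, which starts centriole duplication, and the checkpoint kinase TTK were not called, with changes of 0.01, 0.10 and 0.14.

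CDC20 had 364 and 365 CPM in knockout gels, against 302 and 304 CPM in control gels. The libraries of each group were closely matched and the groups did not overlap, with a log2 fold change of 0.27 ± 0.046 (adjusted p = 3.29e-05). UBE2C and PTTG1, which encodes securin, rose with it, by 0.19 and 0.14, while MAD2L1 and BUB3 of the checkpoint complex were not called, at 0.08 and 0.02. Of the CDC25 phosphatases, CDC25B was higher by 0.18 ± 0.051 and CDC25C was not called at 0.03.

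Of the kinesins, 7 of 10 were higher. The largest change was in KIF4A, a motor that rides on chromosome arms and the central spindle, with 155 and 162 CPM in knockout gels, against 129 and 126 CPM in control gels. That is a change of 0.32 ± 0.052 (adjusted p = 1.61e-05) between groups that did not overlap. KIF20A, a motor of cytokinesis, rose by 0.25 ± 0.050, and KIF11, which pushes the spindle poles apart, by 0.15 ± 0.050. KIF18A, KIF20B, KIF2C and CENPE were called as well, at 0.15 to 0.19, and KIF14, KIF15 and KIF23 were not.

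At the kinetochore the subunits of one complex had different values. SPC25 of the NDC80 complex had the largest change of all members. It had 35.6 and 38.7 CPM in knockout gels, against 27.4 and 28.1 CPM in control gels, a change of 0.42 ± 0.077 (adjusted p = 8.61e-05). The libraries of the groups did not overlap. NDC80 itself rose by 0.24 ± 0.051, while the other 2 subunits, SPC24 and NUF2, were not called, at 0.092 ± 0.069 and 0.055 ± 0.056. The differences between subunits were not tested. CENPA, the histone variant that marks centromeres, rose by 0.30 ± 0.082 (adjusted p = 0.00750) and KNL1 by 0.29 ± 0.066 (adjusted p = 0.00128). CENPF, a large kinetochore and nuclear envelope protein, was not called at 0.11 ± 0.049 (adjusted p = 0.0948).

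The cytokinesis genes gave no call. ANLN, the ring scaffold anillin, had 558 and 592 CPM in knockout gels, against 604 and 595 CPM in control gels. The knockout values were the lower ones, with a 95% interval of the log2 change of -0.15 to 0.034. ECT2, which activates RhoA at the cleavage site, RACGAP1 of centralspindlin and PRC1 stood at 0.08, 0.13 and -0.07. Of the spindle proteins 1 of 6, TPX2, was called, at 0.13 ± 0.043. ASPM, a spindle-pole protein, had overlapping groups with 165 and 164 CPM in knockout gels and 163 and 178 CPM in control gels, and an interval of -0.16 to 0.065. HMMR, DLGAP5, CKAP2 and CKAP2L, which act on spindle microtubules, lay at 0.06 to 0.09. Of the passenger complex, CDCA8 (borealin) was higher by 0.15 ± 0.051, and BIRC5 (survivin) and INCENP were not called. The chromosome proteins TOP2A, which untangles sister DNA, and NCAPG and NCAPH of condensin I rose by 0.18 ± 0.046, 0.24 ± 0.050 and 0.24 ± 0.051. SMC2, a condensin core subunit, rose by 0.14, and its partner SMC4 was not called at 0.07. Both factors were higher: FOXM1 by 0.20 ± 0.047 (adjusted p = 0.00168) and MYBL2 by 0.15 ± 0.054 (adjusted p = 0.0342).

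The count in gels depended on single libraries: it fell when control gel 1, control gel 2 or knockout gel 2 was left out. The number of genes called over all genes fell in each of these fits too, in which 1 group had a lone library. The 12 members MKI67, CCNA2, CCNB1, PLK1, KIF20A, KIF4A, NDC80, SPC25, CDC20, NCAPG, NCAPH and FOXM1 were called higher in each of the 17 alternatives tried.

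**Figure D2:**
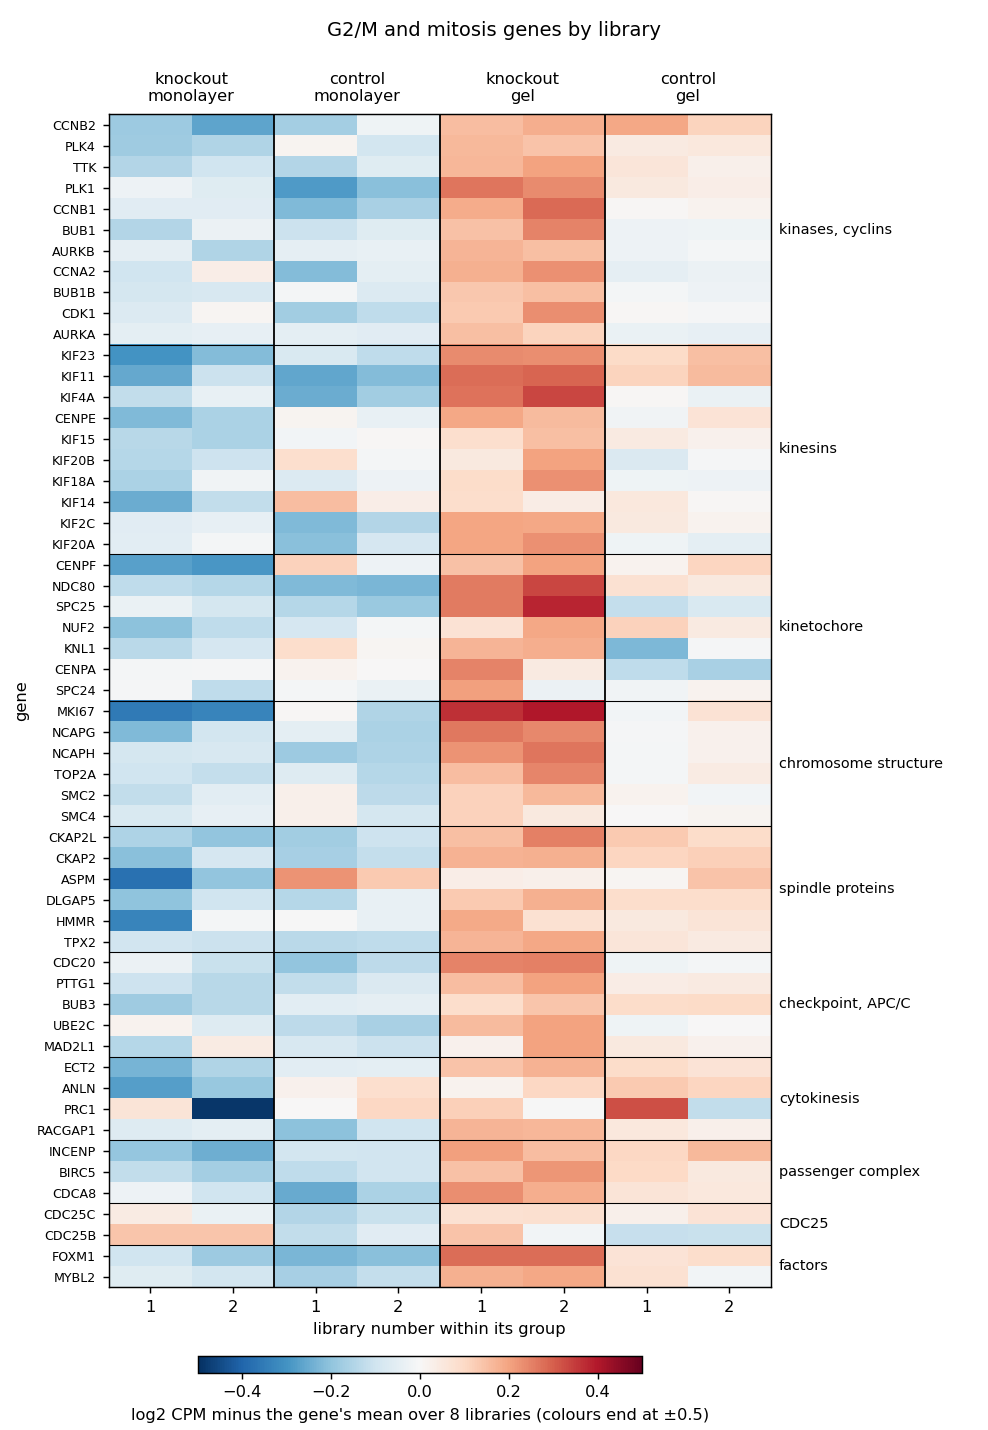
Log2 CPM of each tested member minus the gene's own mean over the 8 libraries (colour, ends at ±0.5), with genes as rows and the 2 libraries of each group as columns, knockout left of control in each culture. Of the 56 members, 56 and 53 stood above their own mean in the knockout gels and 36 and 38 in the control gels, against 4 and 4 in the knockout monolayers and 13 and 7 in the control monolayers.

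In monolayers the members did not move together. Knockout cells had 5 members called higher and 9 lower, shares of 8.93% and 16.1%, against 9.6% higher and 9.6% lower, 19.2% in all, among all genes. The median was -0.025, against 0.013 for all genes. Both knockout libraries lay above both control libraries for 18 members and below both for another 18, patterns found for 30.2% and 26.7% of all genes.

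Among the genes called lower were those of proteins of the spindle poles, the kinetochore and the cleavage furrow. ASPM had 125 and 141 CPM in knockout monolayers, against 189 and 177 CPM in control monolayers. The groups were well apart, and the log2 fold change was -0.46 ± 0.057 (adjusted p = 2.54e-07), a fall of 27.4%. CENPF had 269.7 and 266 CPM in knockout monolayers, against 353 and 320.4 CPM in control monolayers, a change of -0.33 ± 0.049 (adjusted p = 4.61e-06). MKI67 had 361 and 368 CPM in knockout monolayers, against 463 and 417 CPM in control monolayers, a change of -0.27 ± 0.049 (adjusted p = 8.64e-05). Neither gene's groups overlapped. ANLN changed by -0.28 ± 0.046 and KIF14, a kinesin of cytokinesis, by -0.28 ± 0.056 (adjusted p = 1.85e-05 and 0.000337). CENPE, the kinesin that brings chromosomes to the spindle equator, KIF20B and KIF23, kinesins of cytokinesis, and ECT2 were lower by smaller amounts, at -0.18 to -0.14.

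The genes called higher were CDC25B, PLK1, CCNB1, CDCA8 and KIF2C. CDC25B had 196 and 196 CPM in knockout monolayers, against 164 and 172 CPM in control monolayers, a change of 0.23 ± 0.051 (adjusted p = 0.00120). PLK1 had 153 and 149.8 CPM in knockout monolayers, against 128 and 135 CPM in control monolayers, a change of 0.21 ± 0.050 (adjusted p = 0.00287). In both, each knockout library was above each control library. CCNB1, CDCA8 and KIF2C, the last a microtubule depolymerase at the centromere, rose by 0.14 ± 0.047, 0.15 ± 0.052 and 0.14 ± 0.047 (adjusted p = 0.0381, 0.0455 and 0.0388). CDK1, CDC20, AURKA, TOP2A, FOXM1 and MYBL2 were not called, with values of -0.01 to 0.12.

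These counts were small and moved with the fit. Fewer than the 5 were called higher without control monolayer 1, either knockout monolayer, either control gel or knockout gel 1. Fewer than the 9 were called lower without knockout monolayer 1. The number called in the same direction over all genes fell in each of these fits too. ASPM, CENPF, ANLN and KIF14 were called lower, and CDC25B higher, in each of the 17 alternatives.

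**Figure D3:**
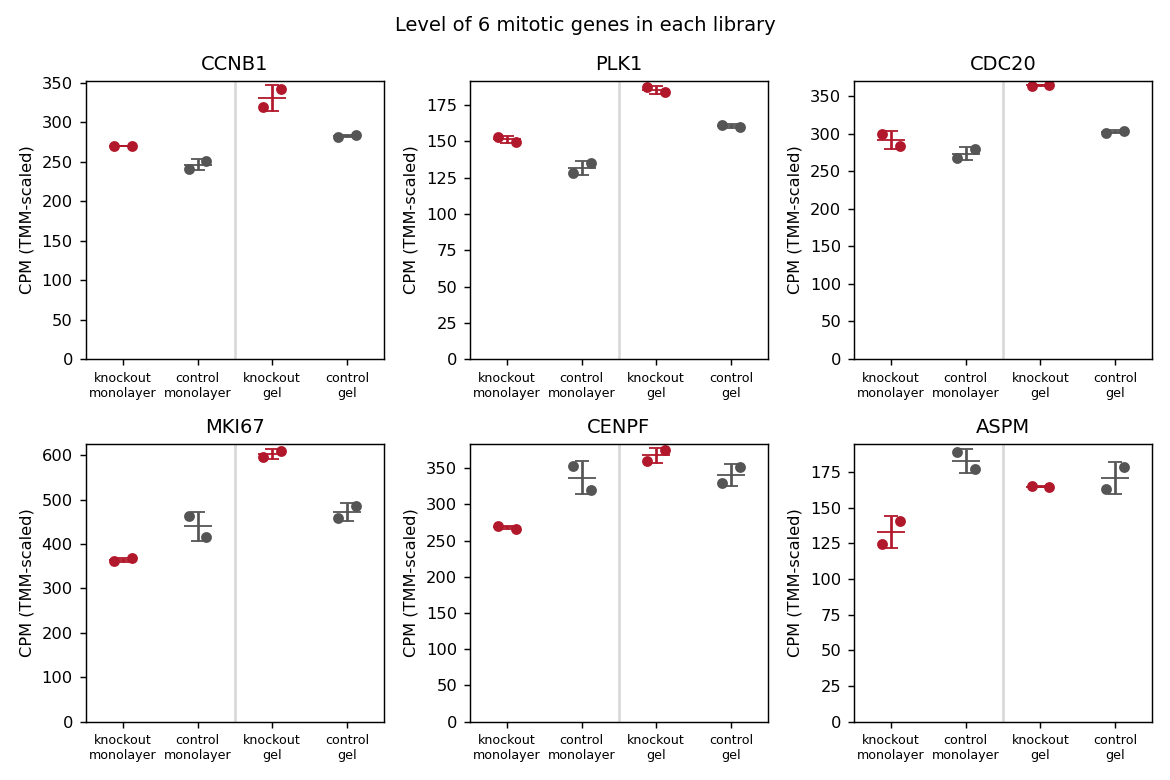
CPM (y axis, linear from 0) of 6 mitotic genes in each library (points), with group means and SDs, n = 2 (bars), knockout in red and control in grey. CCNB1, PLK1 and CDC20 were highest in the knockout gels, and MKI67, CENPF and ASPM were lowest in the knockout monolayers.

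The effect of the knockout was then compared between the cultures by its difference, gels minus monolayers. For 12 members it was called above 0 and for none below, 21.4% of those tested, against 2.67% above 0 and 3.94% below 0, 6.6% in all, among all genes. The median difference was 0.16, against -0.020 for all genes. All 5 members that were higher in knockout monolayers were also higher in knockout gels. Of the 9 that were lower in monolayers, MKI67, KIF20B and CENPE were higher in gels, and the other 6 were not called there.

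MKI67 had the largest difference: its change was 0.35 ± 0.048 in gels and -0.27 ± 0.049 in monolayers, a difference of 0.63 ± 0.069 (adjusted p = 7.15e-08). KNL1 differed by 0.45 ± 0.094 (adjusted p = 0.00201). Its levels were 69.8 and 70.4 CPM in knockout gels and 53.2 and 61.8 CPM in control gels, and 56.6 and 58.6 CPM in knockout monolayers and 66.0 and 62.5 CPM in control monolayers. The knockout libraries were above the controls in gels and below them in monolayers, where the change was not called (adjusted p = 0.0937). CENPF and ASPM differed by 0.44 ± 0.069 and 0.41 ± 0.080 (adjusted p = 4.91e-05 and 0.000962), in both cases with a fall in monolayers and no call in gels. CENPE, KIF20B, KIF14, NCAPG, KIF23, AURKB, ANLN and ECT2 made up the rest, at 0.22 to 0.33. For PLK1 the difference was 0.0050 ± 0.070, with an interval of -0.14 to 0.15, and for CDCA8 it had an interval of -0.15 to 0.15. For CCNB1, CDK1, AURKA, CDC20, TOP2A, FOXM1 and MYBL2 it was 0.06 to 0.19 and not called. Fewer members than these 12 were called without control gel 1 or without knockout gel 2, and more without knockout gel 1. The number called over all genes moved the same way in each of these fits. MKI67, CENPF and ASPM were called in every alternative tried.

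**Figure D4:**
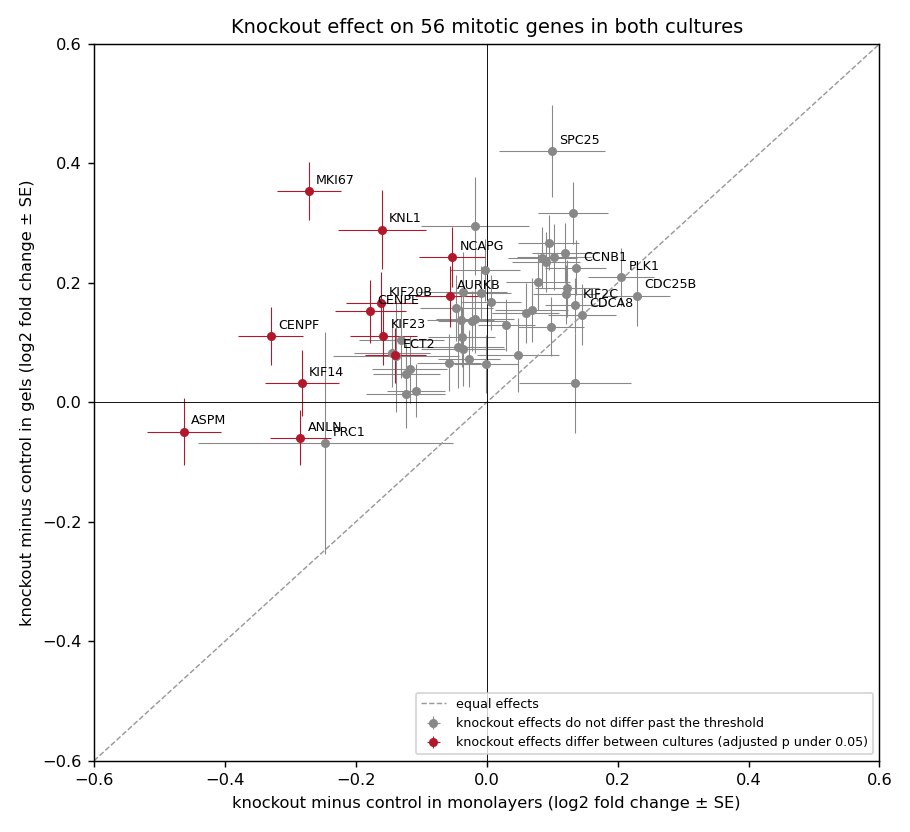
Log2 fold change of knockout against control (± SE) in gels (y axis) and in monolayers (x axis) for the 56 tested members, with a dashed line where both effects are equal. Most points lie above that line, 54 of the 56 differences being above 0, and MKI67, KNL1, CENPF and ASPM lie farthest from it.

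Most of the members that fell in monolayers had long transcripts. Of the 12 tested members with over 5000 bases of exon sequence, 6 were lower and none higher in knockout monolayers, with a median of -0.16. Of the 18 under 3000 bases, none was lower and 3 were higher, with a median of 0.09. Across the 56 members, the Spearman correlation of exon length with the monolayer change was -0.57. Over 13440 tested genes with a known length it was -0.21, and the medians of the same length classes were -0.06 for the long and 0.06 for the short genes, the same order to a smaller extent. These correlations are across genes of the same libraries, which are not independent. In gels, 6 of the 12 long members and 14 of the 18 short ones were higher, and the correlation was -0.28 for the members and -0.06 for all genes. The difference between the cultures, gels minus monolayers, also went with length. It was called above 0 for 7 of the 12 long members and 1 of the 18 short ones, with medians of 0.32 and 0.14. Its correlation with length was 0.39 for the members and 0.13 for all genes. With the trend of count on length removed within each library, MKI67, KIF20B and CENPE were no longer called lower in monolayers and CCNB1, KIF2C and CDCA8 no longer higher. CENPF, ASPM, ANLN, KIF14, KIF23 and ECT2 stayed lower, and CCNB2 and NUF2, both under 3000 bases, were newly called lower, which made 8. In gels, all 32 calls were kept under this correction and 6 members were added. The correction also moved the balance over all genes in gels. Of 13440 genes, 2366 were then higher and 1627 lower, with a median of 0.034. Without the correction they were 1786 and 1935 of 15568, with a median of -0.001. For the difference between cultures all 12 calls were kept and 22 members were called. Over all genes 468 were then above 0 and 513 below, against 415 and 613 without the correction.

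**Figure D5:**
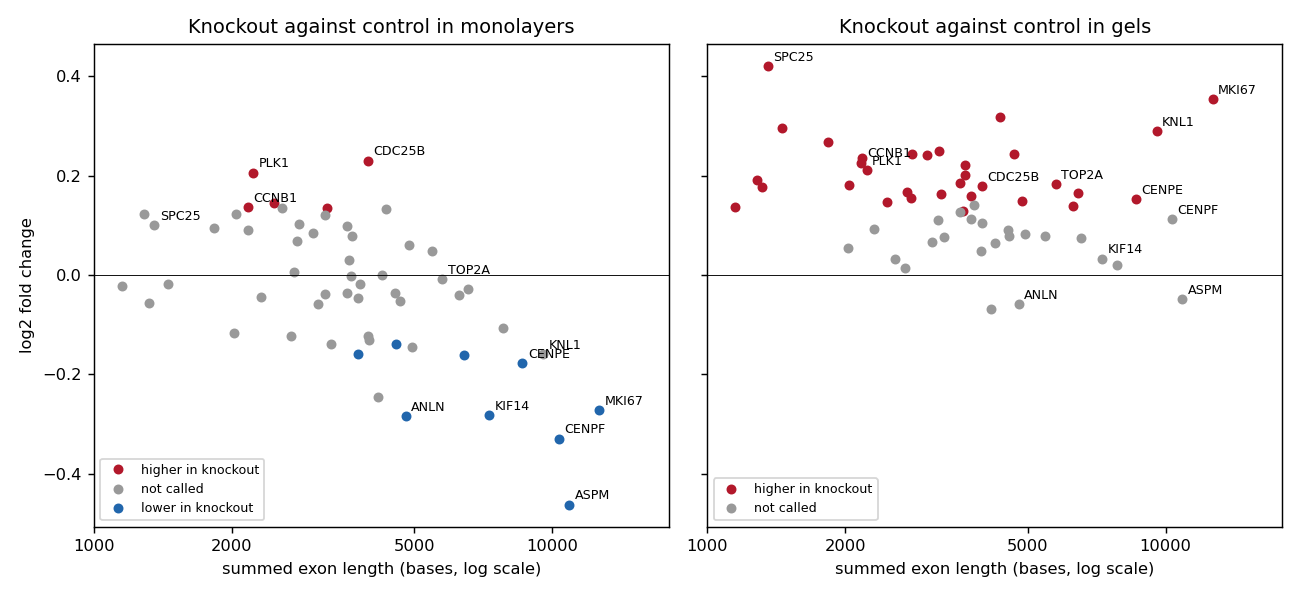
Log2 fold change of knockout against control (y axis) by summed exon length in bases (x axis, log scale) for 56 members, in monolayers (left) and gels (right), coloured by call. The 6 members of over 5000 bases that were called lower in monolayers lie at the lower right, and in gels no member was called lower at any length.

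The knockout effects were also placed beside those of other gene lists, which were chosen with earlier results of these data known. Of 79 other mitotic genes tested, 32 were higher and 1 lower in knockout gels, with a median of 0.13. These are shares of 40.5% and 1.27%, against 11.5% and 12.4% of all genes. In monolayers 8 were higher and 8 lower, 10.1% each, near the 9.6% each of all genes. CENPN, a reader of centromeric chromatin, and PKMYT1, a kinase that restrains CDK1, rose in gels by 0.40 ± 0.056 and 0.39 ± 0.067. CIT, the citron kinase of cytokinesis, and IQGAP3 changed in monolayers by -0.41 ± 0.054 and -0.43 ± 0.055. Of 47 S-phase and DNA replication genes, 31 were higher in knockout gels, with a median of 0.18, against 11.5% of all genes. In knockout monolayers 13 were higher and 34 not called, with a median of 0.09, against 9.6% of all genes called higher. None was lower in either culture. RRM2, a subunit of the enzyme that makes deoxynucleotides, rose by 0.55 ± 0.047 in gels and 0.44 ± 0.048 in monolayers. The summed CPM of the members divided by that of the S-phase genes was 1.82 and 1.84 in knockout gels, against 1.90 and 1.92 in control gels. It was 1.90 and 1.97 in knockout monolayers, against 2.14 and 2.15 in control monolayers. In both cultures the ratio was lower in the knockout libraries, with no overlap.

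Among regulators, CDKN1A, the CDK inhibitor p21, was higher in knockout cells, by 0.33 ± 0.059 in gels and 0.63 ± 0.061 in monolayers (adjusted p = 5.51e-05 and 7.00e-10). It was among 12 genes of G1 and CDK inhibition, of which 5 (41.7%) were higher in knockout gels. In knockout monolayers 3 (25%) were higher and 1 (8.33%) lower. Among all genes, 11.5% were higher and 12.4% lower in knockout gels, and 9.6% each way in knockout monolayers. Of 10 genes of MuvB and DREAM, 1 was higher and 1 lower in knockout monolayers (10% each). In knockout gels 4 (40%) were higher and 1 (10%) lower. RBL2, the p130 subunit of DREAM, was the lower one, at -0.35 ± 0.074, and was also lower in knockout monolayers, at -0.24 ± 0.070. Of 16 APC/C subunits and partners, 3 (18.8%) were higher in knockout gels, and 4 (25%) were higher and 1 (6.25%) lower in knockout monolayers. The largest of these changes in gels was in UBE2S, which extends ubiquitin chains for the APC/C, at 0.37 ± 0.044. Replication-dependent histones, listed as a sign of RNA selection, were higher in knockout cells, 6 of 10 tested in gels (60%) and 5 of 10 in monolayers (50%). Their summed CPM was 178 and 191 in knockout gels against 111 and 109 in control gels. In monolayers it was 118 and 123 in knockout cells against 66.0 and 64.2 in control cells. Histone RNAs of this kind mostly lack a poly(A) tail. S-phase genes were higher in knockout cells too, so RNA selection and S phase cannot be told apart in these values. None of the 13 mitochondrially encoded genes, a sign of RNA quality, was called in either culture, with medians of -0.22 in gels and 0.18 in monolayers. The part of these signs in the members' changes was not tested.

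Gels were compared with monolayers in each genotype. In knockout cells nearly all members were higher in gels: 51 of 56 were called higher and none lower, against 20.1% higher and 17.9% lower, 38% in all, among all genes. The median was 0.29, or 22.3%, against -0.006 for all genes. In control cells 25 were called higher and none lower, 44.6% of those tested, against 16% higher and 10.7% lower, 26.7% in all, among all genes, and the median was 0.13, against 0.012. All 25 were also called in knockout cells, and they made up 49% of the 51. CENPA, SPC24, CDC25B, CDC25C and PRC1 were called in neither. Both gel libraries lay above both monolayer libraries for 52 members in knockout cells and below both for none, against 34% and 33.6% of all genes. In control cells they lay above for 41 members and below for 2, against 34.9% and 29.5%.

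Between knockout gels and knockout monolayers, MKI67 changed most, by 0.72 ± 0.049 (adjusted p = 6.34e-14), a rise of 65.2% and the only called change of at least 1.5-fold. KIF23 had 176 and 176 CPM in knockout gels, against 122 and 129 CPM in knockout monolayers, a change of 0.49 ± 0.051 (adjusted p = 1.93e-09). KIF11 had 223 and 225 CPM in knockout gels, against 154 and 170.5 CPM in knockout monolayers, a change of 0.46 ± 0.050 (adjusted p = 6.33e-09). Both motors were well above their monolayer levels with no overlap. CENPF, NDC80 and FOXM1 followed at 0.46 ± 0.049, 0.43 ± 0.052 and 0.42 ± 0.048. All 11 kinases and cyclins, all 10 kinesins, all 5 checkpoint and APC/C partners and all 6 chromosome proteins were called higher, among them CDC20 at 0.32 ± 0.046, TOP2A at 0.31 ± 0.046, CCNB1 at 0.29 ± 0.047, PLK1 at 0.29 ± 0.049, CDK1 at 0.21 ± 0.050, AURKA at 0.18 ± 0.046 and, of the factors, MYBL2 at 0.26 ± 0.055.

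Between control gels and control monolayers the largest change was in KIF11, with 199 and 205 CPM in control gels, against 154 and 158 CPM in control monolayers. Its libraries did not overlap, and the log2 fold change was 0.37 ± 0.050 (adjusted p = 7.55e-07). FOXM1 had 185 and 188 CPM in control gels, against 151 and 153 CPM in control monolayers, a change of 0.30 ± 0.048 (adjusted p = 1.64e-05). PLK1, NDC80 and CDCA8 rose by 0.29 ± 0.050, 0.29 ± 0.052 and 0.27 ± 0.052. CCNB1, MYBL2, CDK1 and CDC20 were called at 0.15 to 0.20, and CENPF, AURKA, TOP2A and MKI67 were not, at 0.01 to 0.12. All 3 passenger complex genes and 4 of 6 spindle proteins were called, but 1 of 7 kinetochore genes. With total counts in place of TMM scaling, 12 members were called higher and 5 lower, among them KNL1 and ASPM. Fewer members were called higher without control monolayer 1 or without control gel 1, and so were fewer of all genes.

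Several immediate-early genes differed more between the cultures than any member did. FOS changed by 6.09 ± 0.065 in knockout cells and 6.48 ± 0.066 in control cells, and 9 and 10 of 13 such genes were higher in gels, with 2 and 1 lower. Their summed CPM was 3339 and 3164 in knockout gels and 3173 and 3273 in control gels, against 1368 and 1315 in knockout monolayers and 1230 and 1235 in control monolayers. Mitochondrially encoded genes had medians of -0.43 in knockout cells and -0.03 in control cells, with none called. The part of these genes in the members' changes was not tested. Of the S-phase genes 44 of 47 in knockout cells and 36 of 47 in control cells were higher in gels, with medians of 0.37 and 0.28. Of the other mitotic genes 61 and 33 of 79 were higher. Of all genes, 20.1% in knockout cells and 16% in control cells were called higher in gels.

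Members with and without a CHR match in the RefSeq window were set side by side. In knockout gels against control gels, 25 of 43 members with a match and 2 of 4 without were called higher, with medians of 0.15 and 0.12. For knockout gels against knockout monolayers the counts were 39 of 43 and 3 of 4, with medians of 0.29 and 0.26. The shares of all genes called higher in these comparisons were 11.5% and 20.1%. The calls in knockout monolayers, 5 higher and 9 lower, all fell on the members with a match, and those without it were 4. Among all genes 9.6% were called each way there, so 4 members are too few to read a link to the CHR from this. The difference between the members with and without a match was not tested.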

How the data were processed

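Poly(A) RNA of 8 MDA-MB-231 libraries, 4 groups of 2, was measured with a stranded mRNA kit, per the labels' protocols. The authors deposited raw counts per gene symbol, not normalized. Per the submitters' processing notes, FastQC 0.11.9, STAR 2.7.9a, featureCounts and R 4.1.1 were used, with the build hg38. They name neither the annotation used for counting nor its strand setting.

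From the deposited counts, genes were filtered with filterByExpr (minimum count 10), scaled by TMM and fitted in R 4.3.3 with edgeR 4.0.16, using the robust quasi-likelihood F-test on group means over all 8 libraries, two-sided, with Benjamini-Hochberg adjustment and a threshold of 0.05. The 4 residual degrees of freedom are pooled with spread shared across genes, which gave the members a median of 34.3. An exact permutation test of 2 libraries against 2 cannot go below 0.333. The biological coefficient of variation was 4.03%, and replicate libraries differed by more than counting error (chi-squared over its degrees of freedom, 2.48 to 6.03). In simulated data with known changes in knockout gels, the fit called 69% of log2 changes of 0.4 and 91% of changes of 1. There were 5 false calls among 15209 genes. Smaller changes were not simulated, so a member that was not called may still have changed. Exon lengths came from GENCODE v29 and promoters from RefSeq GRCh38.p14.

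Members and lists were chosen with earlier results of these data known. Any member could be named. CCNB1, CDK1, PLK1, AURKA, CDC20, CENPF, TOP2A, MKI67, FOXM1 and MYBL2 were described in each comparison, with the 5 largest called rises and falls, up to 2 examples per role and up to 2 genes with the smallest adjusted p per other list. Alternatives were DESeq2 1.42.0, other scalings and filters, a replicate block, the compared groups alone, removal of a length trend and leaving out each library. Columns of every library were used.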

Additional observations from a re-analysis of the deposited data

Results flagged for a closer look

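For 12 of the 56 tested members (21.4%) the effect of the knockout was called different between gels and monolayers. The test was edgeR's quasi-likelihood interaction test with Benjamini-Hochberg adjustment. Each difference is the log2 fold change of knockout against control in gels less the same in monolayers. It was 0.63 for MKI67, 0.45 for KNL1, 0.44 for CENPF and 0.41 for ASPM. For the motors CENPE, KIF20B, KIF14 and KIF23 it was 0.33, 0.33, 0.32 and 0.27. It was 0.30 for the condensin subunit NCAPG, 0.23 for AURKB, 0.23 for ANLN and 0.22 for ECT2. All 12 were above 0, while among all genes 2.67% were called above 0 and 3.94% below. Of the 12, 7 had over 5000 bases of exon sequence. Each group has 2 libraries, too few to ask whether 1 of them stood apart within its group.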

How the results depend on the processing

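No called value of a named member changed sign in the 17 alternatives. Members called higher in knockout monolayers were 2 with upper-quartile scaling, with no filter on low counts, with the length trend removed, with the compared groups alone and with DESeq2. In these fits 1368 of 15568, 1164 of 30651, 1354 of 13440, 1226 of 15013 and 852 of 12549 genes were called higher, against 1494 of 15568 in the main fit. DESeq2 called 1835 genes in all in knockout monolayers, 2479 in knockout gels, 2431 for control gels against control monolayers and 678 for the difference between cultures, against 2989, 3721, 4158 and 1028 by edgeR. For control gels against control monolayers, total-count scaling gave 12 members higher and 5 lower, upper-quartile scaling 2 lower, and DESeq2 size factors, a mean of at least 5 CPM, the compared groups alone and the replicate block 1 lower, KNL1 in each case. Total-count scaling gave 1 member lower in knockout gels against knockout monolayers. For the difference between cultures, 22 members were called with the length trend removed. Scaling moved the balance over all genes: control gels against control monolayers had 2486 higher and 1672 lower with TMM, 1699 and 2213 with upper-quartile scaling and 1239 and 2804 with total counts. Knockout gels against knockout monolayers had 3122 and 2793 with TMM, 2293 and 3360 with upper-quartile scaling and 2089 and 3539 with total counts. With the length trend removed, knockout gels against control gels had 2366 higher and 1627 lower, against 1786 and 1935. Leaving out 1 library, with a lone library assumed to vary like the others, gave 1 to 7 members higher and 5 to 11 lower in knockout monolayers, with 1848 to 3224 genes in all, and 14 to 35 higher in knockout gels, with 2106 to 3914 in all. It gave 11 to 27 higher and 0 to 1 lower for gels in control cells, with 2144 to 4501 in all, 48 to 51 for gels in knockout cells, with 4191 to 6028, and 4 to 19 for the difference, with 413 to 1334. The replicate numbers pair no libraries in the labels, and deviations of same-numbered libraries correlated at -0.0629 to 0.0817. With the replicate block, 5 members were higher and 9 lower in knockout monolayers, 32 were higher in knockout gels, 26 and 51 for gels in control and in knockout cells, and 13 for the difference. Over all 15568 genes the block gave 1603 higher and 1584 lower in knockout monolayers and 1896 and 2041 in knockout gels. For gels it gave 2628 and 1807 in control cells and 3208 and 2900 in knockout cells, and for the difference 484 and 719. The causes were not tested. Depth was lowest for PRC1, with 62 to 125 counts, and NUSAP1, with 0 to 2, could not be tested.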
